A study of Mus musculus with 6 samples.

Results

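The genes described here are 10 that encode the contractile apparatus of smooth muscle, namely Acta2, Actg2, Myh11, Cnn1, Tagln, Des, Myl9, Mylk, Smtn and Lmod1. They were taken by symbol from a deposited table of 23402 genes, and all 10 symbols were found in it. The table holds FPKM values (fragments per kilobase of transcript, adjusted for library size, so that a level is already divided by transcript length) for bulk RNA from whole terminal ileum, where the small bowel meets the colon. There were 3 KO mice, which carried loxP-flanked (floxed) alleles of the interleukin-17 receptor gene (Il17ra fl/fl) and Cre recombinase driven by Atoh1 (Atoh1-cre+), and 3 WT mice, which were littermates with the same floxed alleles and no Cre (Atoh1-cre-). All 6 mice, KO and WT, were 6 weeks old, had been given dextran sodium sulfate (DSS), a polysaccharide that injures the intestinal epithelium, in the drinking water, and were sampled on day 6. Atoh1 is a transcription factor of the secretory epithelial lineage, so the Cre driver is not one of muscle. WT here means a floxed, Cre-negative animal, and animals without DSS were not analysed here.

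The ileal wall holds an inner circular and an outer longitudinal layer of smooth muscle, a thin muscle sheet under the mucosa, and single muscle strands in the villi. Smooth muscle shortens when calcium and calmodulin activate myosin light chain kinase, which phosphorylates the regulatory light chain and lets the myosin heavy chain pull on actin filaments. Actin-binding proteins tune that cycle, and desmin filaments and dense bodies carry the force through the cell. Transcription of these genes is known to depend on serum response factor (SRF) and its coactivator myocardin. SRF binds a sequence called the CArG box.

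Between 16317 and 16547 genes were above 0 in a library, and its depth, estimated from the steps between the lowest values, was about 8230000 to 9690000 fragments. From these estimates, the value of a contractile gene in 1 library rested on about 261 fragments (Lmod1, the least covered) to about 8483 fragments (Mylk). The counting error alone was then at most 6.19% for Lmod1, 4.58% for Smtn and 3.99% for Cnn1, and at most 2.95% for the other 7 genes. These errors cover counting only. Il17ra itself was not lower in KO, at 7.93, 8.36 and 6.07 FPKM against 6.04, 5.91 and 6.53 FPKM in WT, so in whole tissue it does not check the labels. Epithelial genes were abundant in every library, the brush border gene Vil1 at 568 to 782 FPKM and the keratin gene Krt8 at 882 to 1055 FPKM. Defining genes of the terminal ileum were close to absent: Fabp6, the ileal bile acid binding protein, was at 0.316, 1.02 and 2.41 FPKM in the KO libraries and at 1.22, 0.316 and 9.79 FPKM in the WT libraries, and Slc10a2, the ileal bile acid transporter, did not exceed 1.94 FPKM in any library. Slc51a, a bile acid exporter subunit, was at 103 to 136 FPKM.

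The summed level of the contractile genes overlapped between the groups. It was 961, 775 and 907 FPKM in KO ileum and 1196, 941 and 866 FPKM in WT ileum. The lowest sum was in KO 2 and the highest in WT 1, and the other 4 libraries lay between 866 and 961 FPKM with the groups interleaved. The group means were 881 ± 95.6 FPKM in KO and 1001 ± 173 FPKM in WT (SD, n = 3 each), a ratio of 0.880. As a share of all FPKM in a library, the 10 genes held 0.180%, 0.148% and 0.183% in KO and 0.199%, 0.171% and 0.163% in WT. The ratio of the sums was 0.933 without KO 2 and 0.975 without WT 1. In bulk tissue, fewer muscle cells and less RNA per muscle cell cannot be told apart.

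No contractile gene passed the test. Each gene was compared on the log2(FPKM + 1) scale with limma's moderated test over the 12695 genes that averaged 1 FPKM or more, a filter that all 10 contractile genes passed. At a threshold of 0.05 after Benjamini-Hochberg adjustment, 0 of 10 contractile genes were called, against 0% of all genes tested. At an unadjusted p under 0.05 the count was 0 of 10, against 3.62% of all genes tested. The median log2 fold change of the 10 was -0.19, with 8 below 0 and 2 above, where the median over all genes tested was 0.03, with 5281 below 0 and 7414 above. That median was -0.10 without KO 2 and -0.05 without WT 1. It was -0.07, with 6 of 10 below 0, when libraries were rescaled to an equal sum, a scaling that itself moved the median of all genes to 0.14. Lmod1 was the only one of the 10 whose 3 KO values all lay below its 3 WT values, against 2.60% of all genes tested, and none had all KO values above all WT values, against 5.77% of all genes tested.

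**Figure D1:**
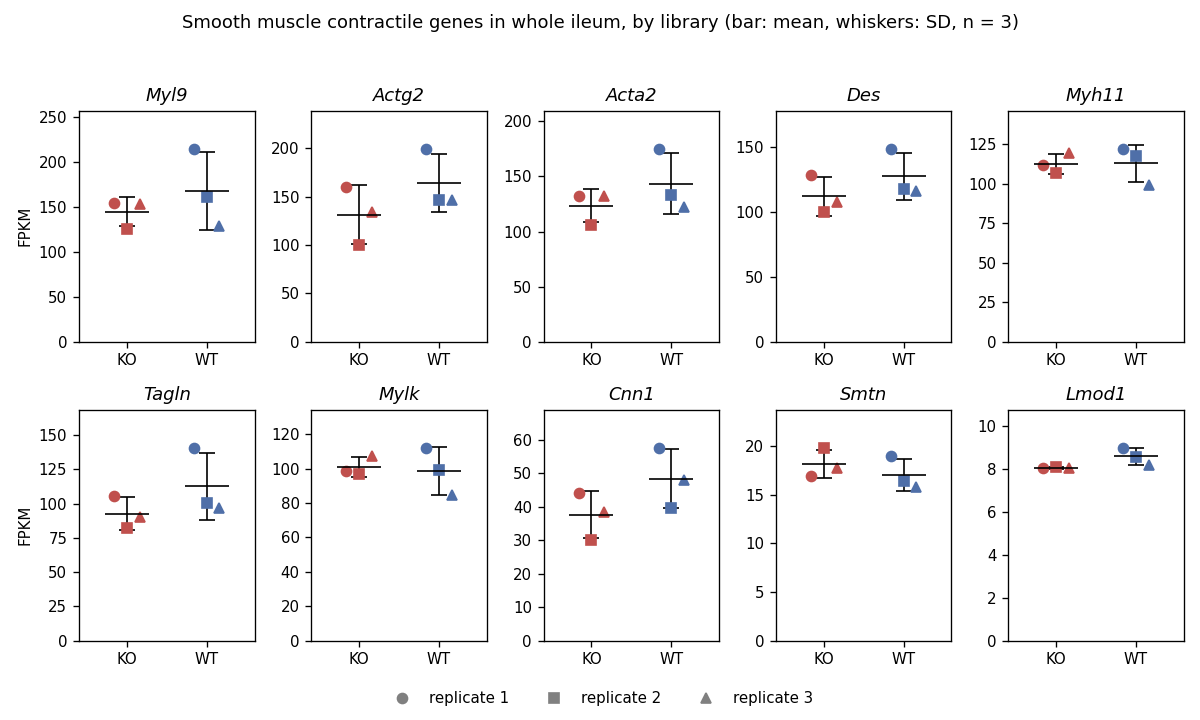
Level of each contractile gene in FPKM (vertical axes from 0, a scale per gene) in the 3 KO libraries (red, left) and the 3 WT libraries (blue, right), with bars at the group mean and whiskers of 1 SD (n = 3 each). In 6 of the 10 genes the lowest point is KO 2 and in 9 the highest is WT 1, and the groups overlap in all genes but Lmod1.

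Both smooth muscle actins were among the 3 most abundant genes of the set. Acta2 (chromosome 19 from 34241090 to 34255590, minus strand, GRCm38) encodes the alpha actin of vascular and other smooth muscle and of myofibroblasts. It stood at 132, 106 and 132 FPKM in KO and at 175, 133 and 122 FPKM in WT. The KO 1, KO 3 and WT 2 values were nearly level, KO 2 was the lowest and WT 1 the highest. The group means were 123 ± 15.2 FPKM in KO and 143 ± 27.7 FPKM in WT (SD, n = 3 each), and the log2 fold change was -0.20 (SE 0.16, 95% interval -0.58 to 0.17, limma adjusted p = 0.998). It was -0.10 without KO 2, -0.05 without WT 1 and -0.31 without WT 3. Actg2 (chromosome 6 from 83512905 to 83536265, minus strand) encodes the gamma actin that marks visceral muscle. It stood at 160, 100 and 134 FPKM in KO and at 199, 146 and 147 FPKM in WT. The groups overlapped because KO 1 exceeded both WT 2 and WT 3. The means were 131 ± 30.1 FPKM in KO and 164 ± 30.1 FPKM in WT (SD, n = 3 each), with a log2 fold change of -0.33 (SE 0.20, 95% interval -0.78 to 0.13, limma adjusted p = 0.998), and -0.15 without KO 2 and -0.18 without WT 1. The ratio of Acta2 to Actg2 was 0.827, 1.06 and 0.987 in KO and 0.879, 0.910 and 0.833 in WT, highest in KO 2, the library with the lowest Actg2.

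The 2 actins are close copies, and how far reads can be told apart bears on these values. Their coding sequences (1134 bases in Acta2 and 1131 in Actg2, the longest GENCODE transcript of each gene) were identical at 955 of 1134 aligned positions, or 84.2%. The longest run shared by the 2 transcripts was 29 bases. It is shown here in capitals with 10 coding bases on each side, since it is the longest stretch from which a read could not be assigned to either gene.
Acta2: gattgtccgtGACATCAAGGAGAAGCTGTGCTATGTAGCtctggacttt
Actg2: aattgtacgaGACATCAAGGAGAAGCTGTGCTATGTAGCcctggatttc
The striated muscle actins Acta1 and Actc1 shared runs of at most 38 bases with them, and the cytoplasmic actins Actb and Actg1, which are more abundant, runs of at most 56 bases. Acta1, the skeletal actin, was at 0.534, 0.579 and 0.174 FPKM in KO and at 0.820, 0.843 and 2.81 FPKM in WT, and Actc1, the cardiac actin, did not exceed 0.75 FPKM. The sources used here do not say how fragments were shared out between genes.

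Promoter sequence was at hand for 7 of the 10 genes (RefSeq start sites, GRCm38.p6, 250 bases before to 50 after the start). The 10-base CArG box was searched on both strands, where it reads alike, in an exact form with only A or T in its 6-base core and in a near form with 1 other base there, and overlapping matches were counted separately. An exact box was found in 1 of the 7 windows, that of Myl9, and an exact or near box in 2, those of Myl9 and Acta2. Of all 32851 windows in the table, 1.63% held an exact box and 9.98% an exact or near one. Each of the 2 windows held 2 boxes, which did not overlap, and 0.822% of all windows held 2 or more. In Acta2 (chr19:34255324-34255623, minus strand) the near boxes began 84 and 34 bases before the start site. In Myl9 (chr2:156775214-156775513, plus strand) the exact box began 161 and the near box 99 bases before it. Both windows are shown because they hold the boxes, in capitals, and belong to genes that followed the mean profile of the set closely.
Acta2: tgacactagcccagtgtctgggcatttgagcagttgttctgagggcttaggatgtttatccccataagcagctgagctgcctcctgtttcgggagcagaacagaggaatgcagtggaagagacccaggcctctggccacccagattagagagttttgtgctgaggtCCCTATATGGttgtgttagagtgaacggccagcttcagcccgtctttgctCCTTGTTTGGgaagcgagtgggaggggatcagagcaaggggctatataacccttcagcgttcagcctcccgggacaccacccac
Myl9: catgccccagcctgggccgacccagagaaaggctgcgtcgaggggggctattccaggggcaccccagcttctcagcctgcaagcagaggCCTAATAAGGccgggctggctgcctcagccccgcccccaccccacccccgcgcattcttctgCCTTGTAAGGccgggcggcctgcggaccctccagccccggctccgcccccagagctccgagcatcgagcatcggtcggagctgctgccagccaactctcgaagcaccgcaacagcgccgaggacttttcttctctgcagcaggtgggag
The windows of Cnn1, Des, Lmod1, Mylk and Smtn held neither form, which says only that these letters are not in these windows. Those of Mylk (chr16:34784700-34784999) and Smtn (chr11:3539243-3539542) lie wholly inside the annotated genes. The outermost starts of these genes were therefore not searched.

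The motor and its switch were measured by 3 genes. Myh11 (chromosome 16 from 14194535 to 14291372, minus strand), the smooth muscle myosin heavy chain and a marker largely limited to smooth muscle and the mural cells of vessels, stood at 112, 107 and 119 FPKM in KO and at 122, 117 and 99.2 FPKM in WT. Its means were nearly level, at 112 ± 6.39 FPKM in KO and 113 ± 12.0 FPKM in WT (SD, n = 3 each). The log2 fold change was -3.5e-04 (SE 0.11, 95% interval -0.26 to 0.26, limma adjusted p = 0.999), and its sign changed with the library left out or the scaling. Mylk (chromosome 16 from 34745210 to 35002420, plus strand), the calcium-activated light chain kinase, stood at 98.6, 96.6 and 108 FPKM in KO and at 112, 99.4 and 84.4 FPKM in WT. The WT values spanned the KO values on both sides, and the log2 fold change was 0.04 (SE 0.12, 95% interval -0.25 to 0.33, limma adjusted p = 0.998). It was 0.07 without KO 2, -0.0047 without KO 3, 0.14 without WT 1 and -0.06 without WT 3. Myl9 (chromosome 2 from 156775420 to 156781658, plus strand), the regulatory light chain that the kinase phosphorylates, was the most abundant of the 10. It stood at 155, 126 and 153 FPKM in KO and at 214, 161 and 129 FPKM in WT, so that KO 2 was the lowest, next to WT 3, and WT 1 was far above the rest. The log2 fold change was -0.19 (SE 0.19, 95% interval -0.63 to 0.25, limma adjusted p = 0.998), and -0.10 without KO 2, -0.0017 without WT 1 and -0.37 without WT 3.

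Proteins that bind the actin filament held both the lowest and the highest estimate of the set. Cnn1 (chromosome 9 from 22099216 to 22109630, plus strand), or calponin, which inhibits the myosin ATPase on actin, stood at 44.1, 30.1 and 38.5 FPKM in KO and at 57.5, 39.7 and 48.1 FPKM in WT. KO 1 lay between WT 2 and WT 3, so the groups overlapped. The means were 37.6 ± 7.07 FPKM in KO and 48.4 ± 8.93 FPKM in WT (SD, n = 3 each), and the log2 fold change of -0.36 (SE 0.18, 95% interval -0.77 to 0.05) had the smallest unadjusted p of the 10 genes, 0.0768 (limma adjusted p = 0.998). It was -0.21 without KO 2 and -0.23 without WT 1. Tagln (chromosome 9 from 45929619 to 45936058, minus strand), or SM22 alpha, an actin-bundling protein of the calponin family, stood at 106, 82.0 and 90.2 FPKM in KO and at 141, 100 and 97.0 FPKM in WT. KO 1 again exceeded WT 2 and WT 3. The log2 fold change was -0.27 (SE 0.17, 95% interval -0.65 to 0.12, limma adjusted p = 0.998), and -0.10 without WT 1. Smtn (chromosome 11 from 3517523 to 3540612, minus strand), smoothelin, a protein of fully contractile smooth muscle, had the highest. It stood at 16.9, 19.8 and 17.7 FPKM in KO and at 18.9, 16.4 and 15.7 FPKM in WT, and KO 2, the lowest library for most of the set, was its highest. The log2 fold change was 0.09 (SE 0.11, 95% interval -0.16 to 0.34, limma adjusted p = 0.998). It was 0.13 without KO 1, 0.03 without KO 2, 0.16 without WT 1 and 0.04 without WT 3.

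Of the remaining genes, Des (chromosome 1 from 75360329 to 75368579, plus strand) encodes desmin, the intermediate filament protein of muscle. It stood at 128, 99.9 and 107 FPKM in KO and at 148, 118 and 116 FPKM in WT. KO 1 was again above WT 2 and WT 3, and the log2 fold change was -0.19 (SE 0.14, 95% interval -0.51 to 0.14, limma adjusted p = 0.998). It was -0.29 without KO 1, -0.11 without KO 2 and -0.07 without WT 1. Lmod1 (chromosome 1 from 135324807 to 135368065, plus strand), leiomodin, which nucleates actin filaments, was the scarcest of the 10. It stood at 8.04, 8.11 and 8.04 FPKM in KO and at 8.98, 8.58 and 8.21 FPKM in WT, without overlap. The means were 8.07 ± 0.0394 FPKM in KO and 8.59 ± 0.383 FPKM in WT (SD, n = 3 each). The 3 KO values varied by 0.489% (coefficient of variation), below the 5.40% to 6.19% that counting alone gives, and the nearest KO and WT values were closer than that counting error. The log2 fold change was -0.08 (SE 0.09, 95% interval -0.29 to 0.13, limma adjusted p = 0.998), -0.05 without WT 1, and 0.02 after rescaling to an equal sum.

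Because FPKM is per length, the levels can be ordered between genes. By the mean over 6 libraries the order was Myl9 (156 FPKM), Actg2 (148), Acta2 (133), Des (120), Myh11 (113), Tagln (103), Mylk (99.7), Cnn1 (43.0), Smtn (17.6) and Lmod1 (8.33). Mylk, the last of the 7 most abundant, stood at percentile 97.0 of all genes in the table. Acta2 was above Des in 6 of 6 libraries, and so was each gene from Mylk down above the next. The other neighbours did not keep their order, with the first above the second in 4 or 5 of 6 libraries. Annotated genes overlapped 5 of the 10 on the opposite strand, of which Pcsk7, beside Tagln with 108 shared bases, was at 13.9 to 16.0 FPKM and 1700119H24Rik, which overlaps Mylk, at 0.737 to 2.79 FPKM.

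The 10 genes did not vary as a block. KO 2 was the lowest library for 6 of them, namely Acta2, Actg2, Cnn1, Tagln, Des and Myl9, and WT 1 the highest for 9, all but Smtn. Against the mean profile of the other 9 genes over 6 libraries, Pearson's r was 0.988 for Acta2, 0.967 for Tagln, 0.948 for Myl9, 0.929 for Des and 0.899 for Actg2. It was 0.787 for Cnn1 and 0.777 for Lmod1, 0.614 for Myh11 and 0.571 for Mylk, and -0.0033 for Smtn. These coefficients describe 6 libraries of 2 groups that also differ in depth, and carry no test. The division shows in ratios within a library, which do not depend on how libraries are scaled. Myl9 over Myh11 was 1.39, 1.18 and 1.28 in KO and 1.76, 1.38 and 1.30 in WT. Tagln over Myh11 was 0.948, 0.770 and 0.757 in KO and 1.15, 0.855 and 0.978 in WT. Mylk over Myh11 was steadier, at 0.884, 0.907 and 0.902 in KO and 0.919, 0.847 and 0.851 in WT. All 3 ratios overlapped between the groups.

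**Figure D2:**
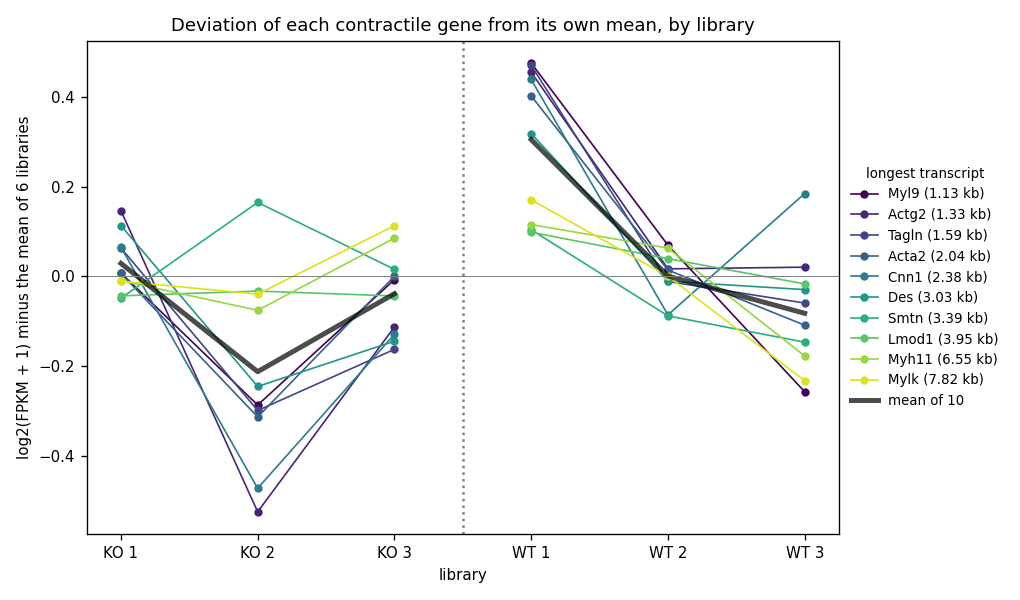
Deviation of each contractile gene from its own mean over 6 libraries, in log2(FPKM + 1), for the 3 KO (left) and 3 WT (right) libraries, with lines joining the points of 1 gene, colours from short (dark) to long (light) transcripts and the mean of the 10 genes in black. The mean is -0.21 in KO 2 and 0.31 in WT 1, and the lines of the long transcripts Myh11, Mylk, Smtn and Lmod1 stay nearer to 0 in both.

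Transcript length followed the same division. The 5 genes whose longest annotated transcript is under 3 kb (Myl9, Actg2, Tagln, Acta2 and Cnn1) had log2 fold changes of -0.19 to -0.36, Des at 3.03 kb had -0.19, and the 4 longest (Smtn, Lmod1, Myh11 and Mylk, 3.39 to 7.82 kb) had -0.08 to 0.09. This grouping was made after the values were seen. In KO 2, the 5 short genes deviated from their means by -0.38 on average and the 5 others by -0.05. In WT 1 the same averages were 0.45 and 0.16. Over all genes tested, the median deviation in KO 2 was -0.02 for transcripts under 1.5 kb and 0.07 for those over 5 kb. In WT 1 it was 0.19 under 1.5 kb, 0.09 for 1.5 to 3 kb, 0.04 for 3 to 5 kb and -0.0098 over 5 kb. The median log2 fold change over all genes was -0.05 under 1.5 kb, 0.0042 at 1.5 to 3 kb, 0.04 at 3 to 5 kb and 0.07 over 5 kb. With each length class of each library centred on its own median, an alternative added after the values were seen, the median over the contractile genes was -0.18, with 9 of 10 below 0 and none called.

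**Figure D3:**
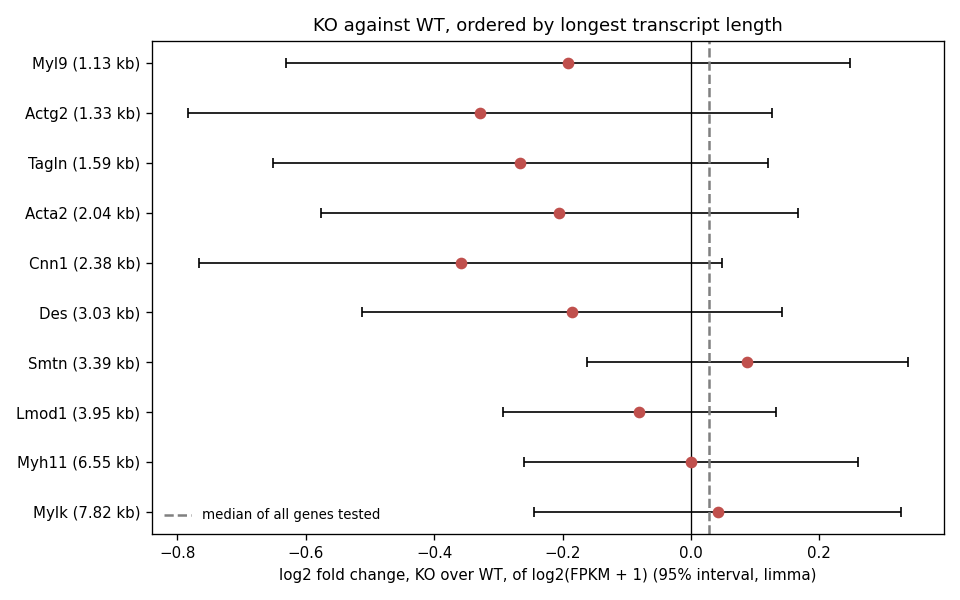
Log2 fold change, KO over WT, of each contractile gene with its 95% interval (limma), ordered from the shortest to the longest transcript, with the median of all genes tested dashed. All 10 intervals include 0, and the 6 shortest genes lie below -0.18.

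**Figure D4:**
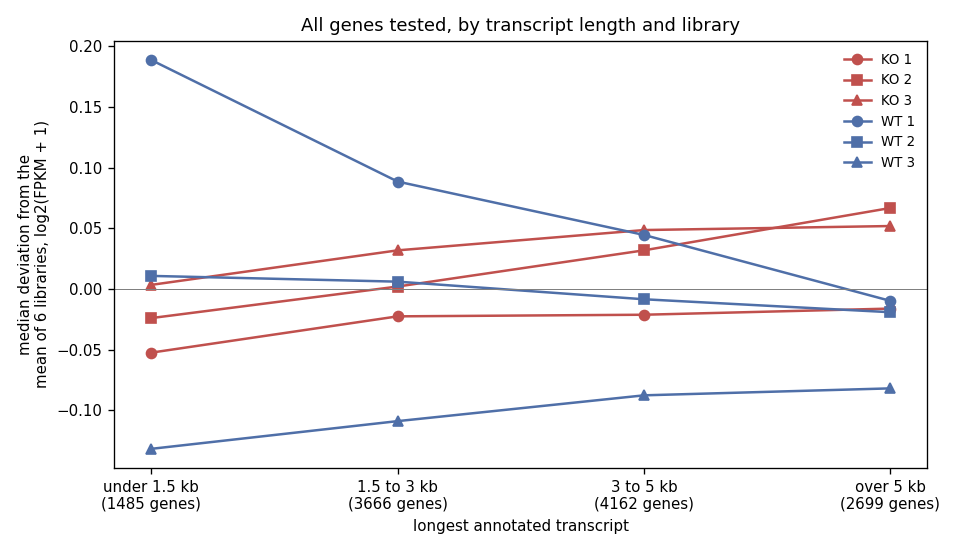
Median deviation of all genes tested from their mean over 6 libraries, in log2(FPKM + 1), by class of longest transcript length, for KO (red) and WT (blue) libraries. KO 2 lies at -0.02 in the shortest class and 0.07 in the longest, WT 1 at 0.19 and -0.0098, and WT 3 lies at -0.13 to -0.08 throughout.

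No other gene on the smooth muscle lists passed the test, and the list medians lay near 0. Of 22 thin filament, dense body and adhesion genes, 11 estimates were above 0 and 11 below (median log2 fold change 0.0025). Tpm1, a tropomyosin, stood at 232, 184 and 216 FPKM in KO and at 257, 232 and 202 FPKM in WT. Flna, an actin crosslinker, was at 112, 108 and 118 FPKM in KO and 123, 110 and 90.4 FPKM in WT. The smallest p values of this list belonged to Cryab, a small heat shock protein (log2 fold change -0.22), and Pdlim3, an actinin-binding LIM protein (-0.25). Like Lmod1, Cryab was lower in all KO than in all WT libraries, at 4.77, 4.95 and 5.31 FPKM against 6.01, 5.58 and 6.44 FPKM. Palld, palladin, an actin-binding protein of dense bodies and adhesions, went the other way, at 13.8, 12.6 and 13.5 FPKM in KO and 12.3, 12.6 and 11.3 FPKM in WT, with all KO values above all WT values by a narrow margin. So 1 of 22 genes had all KO below all WT values, against 2.60% of all genes tested. The reverse also held for 1 of 22, against 5.77% of all genes tested. Genes that set light chain phosphorylation and relaxation had 8 of 13 estimates above 0 (median 0.0095). Among them Ppp1cb, the catalytic subunit of myosin phosphatase, was at 80.3, 74.3 and 83.5 FPKM in KO and 91.9, 86.6 and 88.4 FPKM in WT, without overlap (log2 fold change -0.16, limma adjusted p = 0.998). Rock1, a kinase that inhibits the same phosphatase, did not overlap in the opposite direction, at 24.5, 26.3 and 25.8 FPKM in KO and 23.5, 24.1 and 24.0 FPKM in WT (log2 fold change 0.09, limma adjusted p = 0.998). Rhoa, a GTPase whose signalling restrains that phosphatase, was at 153, 156 and 155 FPKM in KO and 161, 156 and 146 FPKM in WT, and Ppp1r12b, a targeting subunit, had a log2 fold change of 0.15. In this list 1 of 13 genes had all KO below all WT values and 1 of 13 all above, against 2.60% and 5.77% of all genes tested.

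Calcium handling, channel and receptor genes had 7 of 9 tested estimates above 0 (median 0.05), all small. Atp2a2, the calcium pump of the sarcoplasmic reticulum, which epithelium expresses too, was at 99.1, 123 and 127 FPKM in KO and 111, 116 and 108 FPKM in WT. Chrm2, a muscarinic receptor that answers the nerves of the gut wall, was at 7.93, 6.82 and 6.78 FPKM in KO and 7.50, 5.51 and 7.14 FPKM in WT. Cacna1c, the pore of the L-type calcium channel, had a log2 fold change of 0.10. Of 9 transcription factors of smooth muscle, 3 estimates were above 0 (median -0.02). Srf, the CArG box factor, was at 12.2, 9.92 and 11.8 FPKM in KO and 11.5, 11.9 and 11.0 FPKM in WT, and Myocd, its coactivator, at 2.59, 3.30 and 3.21 FPKM in KO and 3.66, 3.04 and 4.59 FPKM in WT. Mef2c had the largest estimate (log2 fold change 0.63, SE 0.24, limma adjusted p = 0.998), at 4.71, 5.97 and 2.78 FPKM in KO and 3.24, 2.20 and 1.98 FPKM in WT. Mef2c is also a gene of B cells, and all 5 of 5 B cell markers had estimates above 0, their sum lying between 10.4 and 68.9 FPKM in KO and between 6.53 and 15.2 FPKM in WT. The part of B cells in the Mef2c value was not tested.

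The non-muscle forms of the same proteins had a mean log2 deviation of 0.045 in KO 2 and 0.012 in WT 1, where the contractile genes had -0.21 and 0.31. Of 13 such paralogues, 9 estimates were above 0 and 4 below (median 0.05), and none passed the test. Actb, the cytoplasmic beta actin of nearly all cells, was at 3088, 2744 and 2655 FPKM in KO and 2489, 2882 and 2813 FPKM in WT, with KO 1 the highest and WT 1 the lowest. Acta2 over Actb was 0.0429, 0.0386 and 0.0497 in KO and 0.0702, 0.0462 and 0.0434 in WT. Myh9 and Myh14, non-muscle myosin heavy chains, had log2 fold changes of 0.23 and 0.19, and Myh10 one of 0.16. Cnn2, the calponin of non-muscle cells, was at 23.7, 23.9 and 15.2 FPKM in KO and 19.5, 16.4 and 11.9 FPKM in WT (log2 fold change 0.38, SE 0.22). It was highest in KO 1 and KO 2, where B cell markers were highest too. WT 1 came next, where B cell markers deviated by -0.60. The part of B cells in the Cnn2 value was not tested. Cnn3 had a log2 fold change of -0.07, Tagln2 0.03, Vim, the intermediate filament of mesenchymal cells, 0.07, Actg1 0.05 and Tmod3 0.02. Of the myosin light chains, Myl12a had -0.03, Myl12b -0.02 and Myl6, the essential light chain shared by smooth and non-muscle myosin, -0.14.

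Cells that lie beside the muscle or share its genes were compared in the same way. The interstitial cells of Cajal, the pacemakers between the muscle layers, had 3 of 3 estimates above 0 (median 0.08). Kit was at 9.56, 10.4 and 9.31 FPKM in KO and 9.25, 8.69 and 8.58 FPKM in WT. It was 1 of 3 with all KO above all WT values, against 5.77% of all genes tested. Enteric neuron markers had 6 of 6 tested estimates below 0 (median -0.08), the furthest being Prph (-0.34), and the others between -0.09 and -0.01. Their sum lay between 32.0 and 40.6 FPKM in KO and between 28.9 and 48.7 FPKM in WT. Mural cells of vessels, which express Acta2, Myh11 and Tagln as well, had 4 of 7 above 0 (median 0.03) and a sum of 116 to 132 FPKM in KO and 103 to 146 FPKM in WT. Rgs5, their most abundant marker, was at 76.7, 86.0 and 79.8 FPKM in KO and 102, 83.2 and 66.8 FPKM in WT. Kcnj8, a pericyte potassium channel, was lower in all KO libraries (log2 fold change -0.37, limma adjusted p = 0.998). It was 1 of 7 tested mural markers to be so, against 2.60% of all genes tested. Fibroblast matrix genes had 5 of 6 estimates above 0 (median 0.17), with Col1a1 at 44.0, 49.2 and 49.9 FPKM in KO and 43.8, 40.5 and 25.8 FPKM in WT. Their sum was 268 to 293 FPKM in KO and 208 to 310 FPKM in WT. Col1a1 and Col1a2, 2 of the 6, had all KO above all WT values, against 5.77% of all genes tested. Subepithelial fibroblast markers, led by Pdgfra, had 2 of 5 above 0 (median -0.06).

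Striated muscle, which would add the sarcomeric relatives of these proteins, was nearly absent. Of 15 markers, Myh4, Myh6 and Lmod2 were at 0 in every library and 1, Ckm, reached the filter, at 3.78, 4.01 and 4.68 FPKM in KO and 7.55, 5.49 and 3.13 FPKM in WT. The 15 summed to 6.02 to 6.97 FPKM in KO and 7.05 to 10.1 FPKM in WT. Mesothelium, the outer lining of the muscle coat, was barely detected, at 0.150 to 1.11 FPKM over 4 markers in KO and 0.312 to 1.87 FPKM in WT. Adipocyte markers, which would come with attached mesenteric fat, had 4 of 4 tested estimates below 0 (median -0.43). Fabp4, a fatty acid binding protein, was at 34.2, 39.8 and 35.0 FPKM in KO and 44.8, 52.0 and 62.9 FPKM in WT. Fabp4 and Plin1 had an unadjusted limma p under 0.05, 2 of 4 against 3.62% of all genes tested. Both had all KO below all WT values, against 2.60% of all genes tested, and neither passed after adjustment. In KO 2, the library with the lowest contractile sum, B cell markers deviated by 1.73 on average, endothelial markers by 0.42, mural cell markers by 0.16, fibroblast matrix markers by 0.01, enteric neuron markers by -0.10, epithelial markers by -0.16 and adipocyte markers by -0.20. In WT 1, the highest, fibroblast matrix markers deviated by 0.24, enteric neuron markers by 0.14, mural cell markers by 0.11, endothelial markers by -0.05, epithelial markers by -0.08, adipocyte markers by -0.16 and B cell markers by -0.60. The part of these cell types in the contractile values was not tested. The endothelial list had 4 of 5 estimates above 0 (median 0.17) and the epithelial list 2 of 6 (median -0.06).

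**Figure D5:**
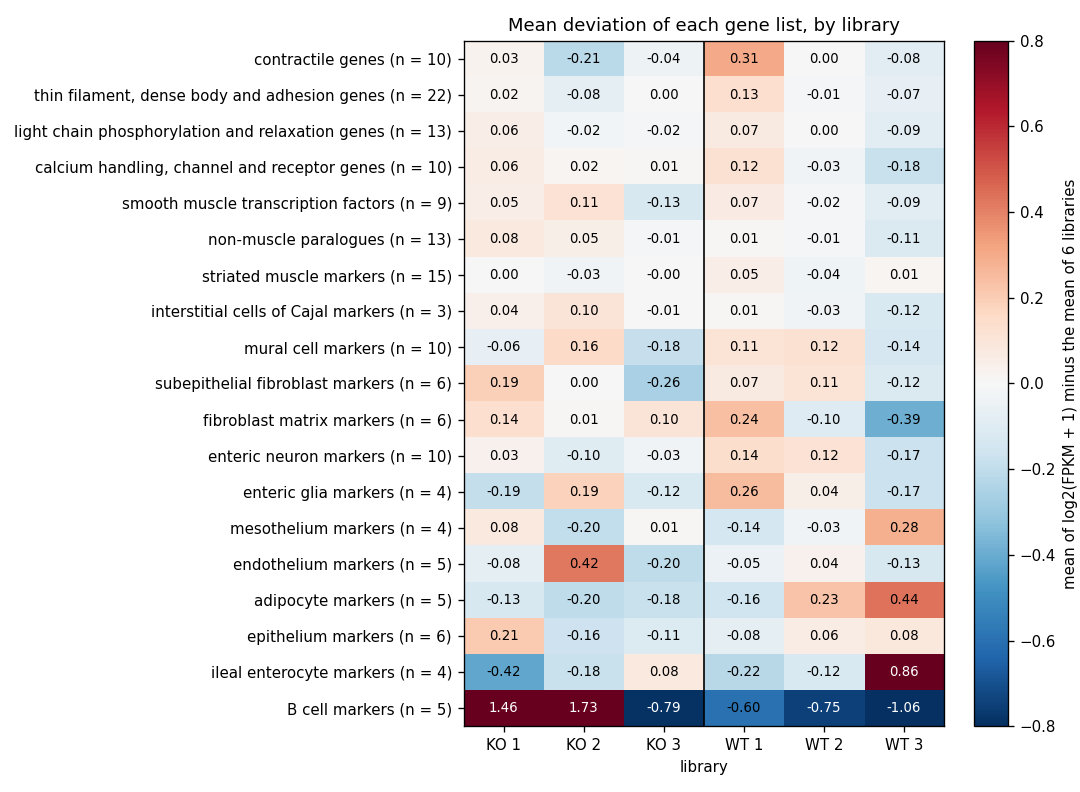
Mean deviation of each gene list from its mean over 6 libraries, in log2(FPKM + 1), for the KO (left) and WT (right) libraries, with the number of genes in brackets. The contractile genes are at -0.21 in KO 2 and 0.31 in WT 1, the other smooth muscle lists stay between -0.18 and 0.13, and B cell markers reach 1.46 and 1.73 in KO 1 and KO 2.

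Genes outside the set were ranked by how closely they followed its mean profile over the 6 libraries. Among 9169 genes that averaged 5 FPKM or more, the median Pearson's r was 0.15, and 111, or 1.21%, exceeded 0.9. The 10 closest were Cdkn2aip (0.990), Tsta3 (0.990), Bloc1s5 (0.987), Srp14 (0.980), Smim6 (0.979), Slc33a1 (0.978), Pus3 (0.972), Ldhb (0.969), 5730408K05Rik (0.966) and Tfpt (0.965). None of them is on the lists of smooth muscle genes. Tsta3 stood at 49.9, 41.9 and 45.8 FPKM in KO and 58.0, 48.7 and 45.2 FPKM in WT, with KO 2 lowest and WT 1 highest. Thin filament, dense body and adhesion genes had 5 of 21 above 0.9 (23.8%; median 0.48), light chain phosphorylation and relaxation genes 0 of 12 (median 0.45), and mural cell markers 0 of 5 (median 0.61). Calcium handling, channel and receptor genes had 0 of 3 (median 0.28) and smooth muscle transcription factors 0 of 6 (median 0.06). Among lists of other cells, epithelial markers had 1 of 6 above 0.9 (16.7%; median 0.13) and fibroblast matrix markers 0 of 6 (median 0.57). Endothelial markers had 0 of 5 (median -0.46). With 6 libraries of 2 groups that also differ in depth, these coefficients are descriptions and carry no test.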

How the data were processed

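Bulk RNA of 6 libraries, 1 per mouse, was measured, 3 KO and 3 WT as titled in the labels. The authors deposited 1 table of FPKM values. The tools named are STAR, Cufflinks, Cuffnorm, Trimmomatic, FastQC, SAMtools and bedtools, without versions, and the builds GRCm38 and mm10, per the submitters' processing notes, and the libraries were made with a directional kit, per the labels' protocols. The scaling between libraries and the use of strand are not stated in the sources used here.

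No count model was used, since FPKM values hold no counts. log2(FPKM + 1) values, which understate changes of low genes, of 12695 genes averaging 1 FPKM or more were tested with limma 3.58.1 (R 4.3.3; intensity trend, two-sided, no covariates). P values set the group difference against the spread between these mice, moderated across genes. The contractile genes and all lists were chosen with earlier results of these data known. Of 160 list entries all were found, 5 under an older symbol. The naming rule took the 10 genes, every paralogue, the 2 most abundant genes and the 2 with the smallest p of each other list, and the 10 genes closest in profile. Not every gene it takes is named, and the result of 1 marker list is not reported here. Il17ra, Srf, Myocd, Slc10a2, Actc1, Myh4, Myh6, Lmod2, Palld, Rock1 and the genes that overlap the 10 were named outside it, after their values were seen.

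Relative depth was read from the commonest ratio of low values between libraries, and fragments from the lowest values of 416 genes with 1 transcript of at least 2000 bases. Both are estimates. Positions and lengths are those of GENCODE M21 (GRCm38). A length was matched for 94.6% of genes tested. Spearman's rho between libraries was 0.980 to 0.985, taken across genes, which are not independent. The test was tried on simulated data. Python 3.11.15, pandas 2.3.3, numpy 2.4.6, Biopython 1.88 and matplotlib 3.10.9 were also used.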

Additional observations from a re-analysis of the deposited data

How the results depend on the processing

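The count of contractile genes past the threshold was 0 in all 18 alternatives run, with a lowest adjusted p of 0.168 (array weights). An unadjusted p under 0.05 was reached by 3 of the 10 with array weights (21.4% of all genes), 2 without KO 1 (6.49%), 1 without WT 2 (2.80%), 1 with the replicate block (3.18%) and 0 under the other alternatives. Their median log2 fold change stayed below 0, from -0.28 without WT 3 to -0.05 without WT 1, and the ratio of summed FPKM was 0.825 to 0.975 when single libraries were left out, 0.862 with median-of-ratios scaling and 0.960 after rescaling to an equal sum. Over all genes, the 0 calls became 2 with a pseudocount of 0.1 or 5 and likewise after equal-sum rescaling, 24 with array weights, 1 with the replicate number as a block, and 0 to 46 when single libraries were left out, the 46 without KO 3. The cause was not tested. Signs turned for 3 genes near 0. Myh11 had 0.11 after rescaling, 0.060 under quantile normalization, and -0.089 (without WT 3) to 0.057 (without WT 1) when single libraries were left out, above 0 also without KO 1, KO 2 and WT 2. Mylk had -0.030 with length centring, -0.0067 with array weights, and -0.065 (without WT 3) to 0.14 (without WT 1) when single libraries were left out, below 0 also without KO 3. Lmod1 had 0.024 after rescaling. Same-numbered mice did not deviate together (r of -0.13, 0.03 and -0.11), and r was -0.02 to 0.14 for mice of different numbers. These coefficients show no sign of pairing by number, but they cannot exclude one. The standard errors of the 10 contractile genes ran from 0.09 (Lmod1) to 0.20 (Actg2), where the median over all genes was 0.13. With 3 mice a group, small differences in muscle content were not detectable.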
